A study of Homo sapiens with 8 samples.

Results

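The APOBEC3 genes encode cytidine deaminases, and all 7 human members, APOBEC3A, APOBEC3B, APOBEC3C, APOBEC3D, APOBEC3F, APOBEC3G and APOBEC3H, were matched by symbol to the Ensembl gene identifiers of the count tables, which hold 63677 genes. The family was taken up because APOBEC3G was higher in PC9-BrM3 than in PC9 parental cells and lower with shHSF1 than with shNTC, so APOBEC3G is described without a test and the other members carry the tests. RNA-seq was performed on PC9, a human non-small cell lung adenocarcinoma line, and on PC9-BrM3, its derivative studied for brain metastasis. The first set compared PC9-BrM3 cells carrying Tet-pLKO-shHSF1 (clone 7480), a doxycycline-inducible lentiviral hairpin against the heat shock transcription factor HSF1, with PC9-BrM3 cells carrying the non-target hairpin Tet-pLKO-shNTC. Both received 5 days of puromycin and 500 ng/mL doxycycline over the last 48 h. The second set compared untransduced PC9-BrM3 with untransduced PC9 parental cells, both grown for 48 h before harvest. There were 4 groups of 2 libraries each.

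APOBEC3 enzymes deaminate cytosine to uracil in single-stranded DNA. They are best known for restricting retroviruses and transposable elements, and APOBEC3A and APOBEC3B are also known for the C-to-T and C-to-G mutations they leave in tumour genomes. Several members are induced by interferon in immune cells, and APOBEC3B transcription in cancer cells is known to be linked to NF-kB and to cell-cycle regulators. Each enzyme has 1 or 2 zinc-coordinating domains, and in the members with 2 domains the second is usually the catalytic one.

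The genes lie side by side on the plus strand of chromosome 22 over 151.3 kb. In the files' GRCh37 coordinates APOBEC3A spans chr22:39348746-39359188, APOBEC3B chr22:39378352-39388809 and APOBEC3C chr22:39410088-39416357. APOBEC3D spans chr22:39410368-39429281, APOBEC3F chr22:39436609-39449915, APOBEC3G chr22:39436924-39483748 and APOBEC3H chr22:39493229-39500072. The annotation starts APOBEC3D inside APOBEC3C and APOBEC3G inside APOBEC3F, through first exons that share 17 and 59 exonic bases with those neighbours. The next annotated exon starts at 39417118 for APOBEC3D and at 39473010 for APOBEC3G, beyond the end of the neighbour.

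The coding stretch of the zinc motif shows how close the members are to each other, which bears on how their reads can be assigned. The stretches below come from GENCODE v29 principal transcripts on GRCh38, are written 5′ to 3′ on the plus strand, and run from the histidine codon to the last cysteine codon of the motif. Capitals mark the codons of the histidine, the glutamate and both cysteines.

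APOBEC3G copy 1: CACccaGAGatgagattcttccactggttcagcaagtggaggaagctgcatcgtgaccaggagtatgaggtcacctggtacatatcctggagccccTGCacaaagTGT
APOBEC3G copy 2: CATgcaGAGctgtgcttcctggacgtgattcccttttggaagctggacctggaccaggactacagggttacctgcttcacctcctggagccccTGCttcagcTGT
APOBEC3B copy 2: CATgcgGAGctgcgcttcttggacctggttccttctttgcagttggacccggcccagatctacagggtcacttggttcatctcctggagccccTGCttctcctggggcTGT
APOBEC3F copy 1: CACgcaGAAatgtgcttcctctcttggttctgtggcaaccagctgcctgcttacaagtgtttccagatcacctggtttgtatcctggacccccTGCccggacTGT
APOBEC3F copy 2: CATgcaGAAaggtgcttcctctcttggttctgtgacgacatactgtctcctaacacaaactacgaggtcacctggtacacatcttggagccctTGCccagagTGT
APOBEC3C copy 1: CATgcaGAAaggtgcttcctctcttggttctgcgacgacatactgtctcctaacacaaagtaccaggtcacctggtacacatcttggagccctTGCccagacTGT
APOBEC3H copy 1: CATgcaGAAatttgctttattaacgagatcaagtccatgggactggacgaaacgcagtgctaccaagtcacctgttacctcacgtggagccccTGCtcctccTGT

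The stretch of APOBEC3B copy 2 was identical to that of APOBEC3A over all 111 bases. APOBEC3F copy 1 was identical to APOBEC3B copy 1, and APOBEC3F copy 2 to APOBEC3D copy 2, over all 105 bases in each pair. APOBEC3C matched APOBEC3F copy 2 at 101 of 105 bases, while APOBEC3G copy 2 and APOBEC3H matched at 65 of 105. APOBEC3A, APOBEC3C and APOBEC3H held 1 copy of the motif, and APOBEC3B, APOBEC3D, APOBEC3F and APOBEC3G held 2. Of all 50-base stretches of the principal transcript, the share found unchanged in another member's transcript was 35.9% for APOBEC3B, 24.0% for APOBEC3F, 22.6% for APOBEC3A, 19.1% for APOBEC3G and 15.2% for APOBEC3D. It was 1.16% for APOBEC3C and 0% for APOBEC3H. Reads from shared stretches could be lost or assigned to a paralogue, so the values of APOBEC3A, APOBEC3B, APOBEC3D, APOBEC3F and APOBEC3G are less certain on that account than those of APOBEC3C and APOBEC3H.

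Libraries held 33550140 to 56715336 counts. HSF1 was at 15.7 and 13.3 normalized CPM (counts scaled to library size) with shHSF1, against 180.5 and 182.3 CPM with shNTC, so that its log2 fold change was -3.61 ± 0.08 (SE) at an edgeR adjusted p of 2.66e-08. Between the lines it was at 54.8 and 51.9 CPM in PC9-BrM3, against 47.0 and 50.4 CPM in PC9 parental cells. That log2 fold change of 0.15 ± 0.14 (SE) did not pass (edgeR adjusted p = 0.531). The 6 epithelial markers were all above 1 CPM in every group, and 4 to 6 of 13 leukocyte markers had no count in a group, with the 13 summing to 1.46 to 1.53 CPM with shHSF1, 2.84 to 2.93 CPM with shNTC, 1.87 to 2.49 CPM in PC9-BrM3 and 1.80 to 1.81 CPM in PC9 parental cells. The 5 lung lineage markers summed to 0.545 to 0.773 CPM with shHSF1, 0.794 to 1.95 CPM with shNTC, 2.30 to 2.87 CPM in PC9-BrM3 and 12.4 to 16.2 CPM in PC9 parental cells, so the labelled lung origin had little support from them. SFTPB made up nearly all of the PC9 parental sum, at 11.6 and 15.8 CPM. In every library NKX2-1 and NAPSA were under 1 CPM, and SFTPC and SFTA3 were at 0 CPM. The 6 fibroblast markers summed to 27.1 to 30.3 CPM with shHSF1, 12.9 to 13.0 CPM with shNTC, 5.31 to 8.94 CPM in PC9-BrM3 and 4.92 to 4.93 CPM in PC9 parental cells, with 4 to 5 of the 6 at 0 counts in a group, and their part in the results was not tested. COL1A1 made up nearly all of each sum, at 30.2 and 27.1 CPM with shHSF1. Each of the other fibroblast markers was at or below 0.0779 CPM in every library. The PC9-BrM3 replicates differed most from each other (chi-square per degree of freedom 301, against 10.9 to 25.1 in the other groups). Both hairpin groups were sequenced in lane 1 and both untransduced groups in lane 7, so lane, transduction and doxycycline cannot be told apart, and tests were made only within a lane. Whether replicates came from separate cultures is not stated in the labels, and the p-values therefore reflect only how much these libraries vary, which may be technical. In bulk RNA, fewer cells expressing a gene and less RNA per cell cannot be told apart.

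Read per length of annotated exon, APOBEC3C was the most abundant family transcript in each of the 4 groups. Its level averaged 47.9 ± 0.36 CPM per kb with shHSF1, 146.5 ± 0.72 with shNTC, 256.8 ± 3.86 in PC9-BrM3 and 319.9 ± 7.57 in PC9 parental cells (SD, n = 2 each). APOBEC3C, a single-domain enzyme of modest antiviral activity, thus supplied 50.9% of the summed family level with shHSF1, 63.2% with shNTC, 67.5% in PC9-BrM3 and 79.7% in PC9 parental cells. APOBEC3B, the mainly nuclear member, averaged 35.0 ± 3.37 CPM per kb with shHSF1, 50.2 ± 6.80 with shNTC, 56.0 ± 14.5 in PC9-BrM3 and 34.4 ± 0.93 in PC9 parental cells. APOBEC3F, a double-domain antiviral member, averaged 7.45 ± 0.35 CPM per kb with shHSF1, 19.3 ± 0.13 with shNTC, 37.1 ± 4.76 in PC9-BrM3 and 35.2 ± 2.44 in PC9 parental cells. APOBEC3B and APOBEC3F did not differ beyond their spread in PC9 parental cells. APOBEC3D, APOBEC3G and APOBEC3H lay between 0.877 and 15.3 CPM per kb in their group means.

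**Figure D1:**
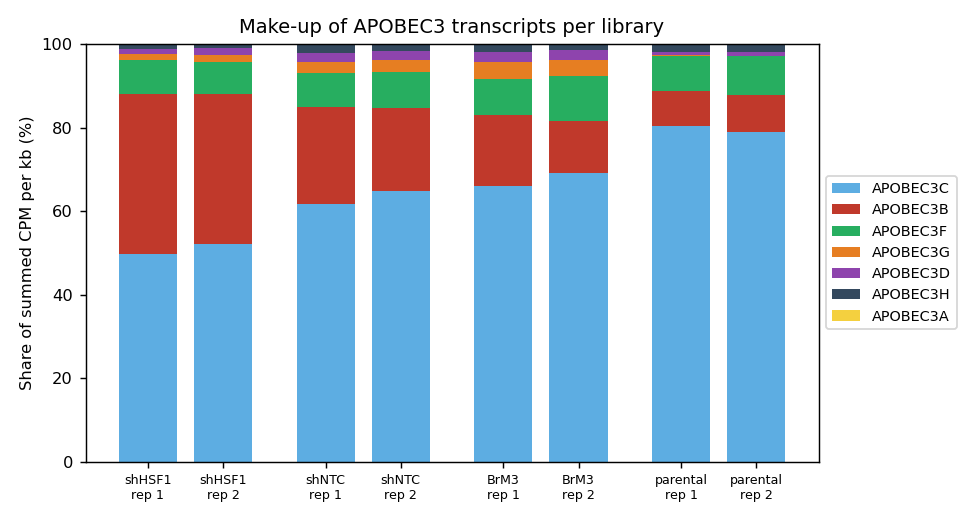
Stacked bars show each APOBEC3 gene's share (%) of the summed family level, in CPM per kb of merged exon, for each library (BrM3, PC9-BrM3; parental, PC9 parental). APOBEC3C holds the largest share in each library, 50.9% on average with shHSF1, against 63.2% with shNTC, and APOBEC3B takes 37.1% with shHSF1, against 21.6% with shNTC.

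These levels depend on the length used. The merged exons of APOBEC3G cover 5496 bases in the files, while its principal transcript is 1834 bases long. With transcript lengths, the APOBEC3G share was 4.17% with shHSF1, 7.27% with shNTC, 10.6% in PC9-BrM3 and 0.624% in PC9 parental cells, against 1.58%, 2.74%, 4.02% and 0.218% with merged exons. APOBEC3C stayed the largest member by either length, at 44.7% with shHSF1, 56.0% with shNTC, 59.3% in PC9-BrM3 and 76.1% in PC9 parental cells by transcript length. Fold changes of 1 gene between groups do not involve its length.

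The knockdown comparison asked what HSF1 depletion changed in PC9-BrM3 cells. All 5 members tested beside APOBEC3G were lower with shHSF1, from APOBEC3H at a log2 fold change of -2.16 to APOBEC3B at -0.49. The median of these 5 was -1.58 on the log2 scale, against 0.006 over the 16840 genes tested. Of all genes tested, 45.7% passed the adjusted p threshold of 0.05 in either direction and 23.5% passed as lower, so a lower call was common here. A log2 fold change of -1 or less was found in 5.78% of all genes and in 4 of these 5 members. The groups of libraries did not overlap for any of these 5 members, as for 72.8% of all genes. Summed per kb, the family stood at 97.0 and 91.3 CPM per kb with shHSF1, against 236.9 and 227.2 CPM per kb with shNTC.

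**Figure D2:**
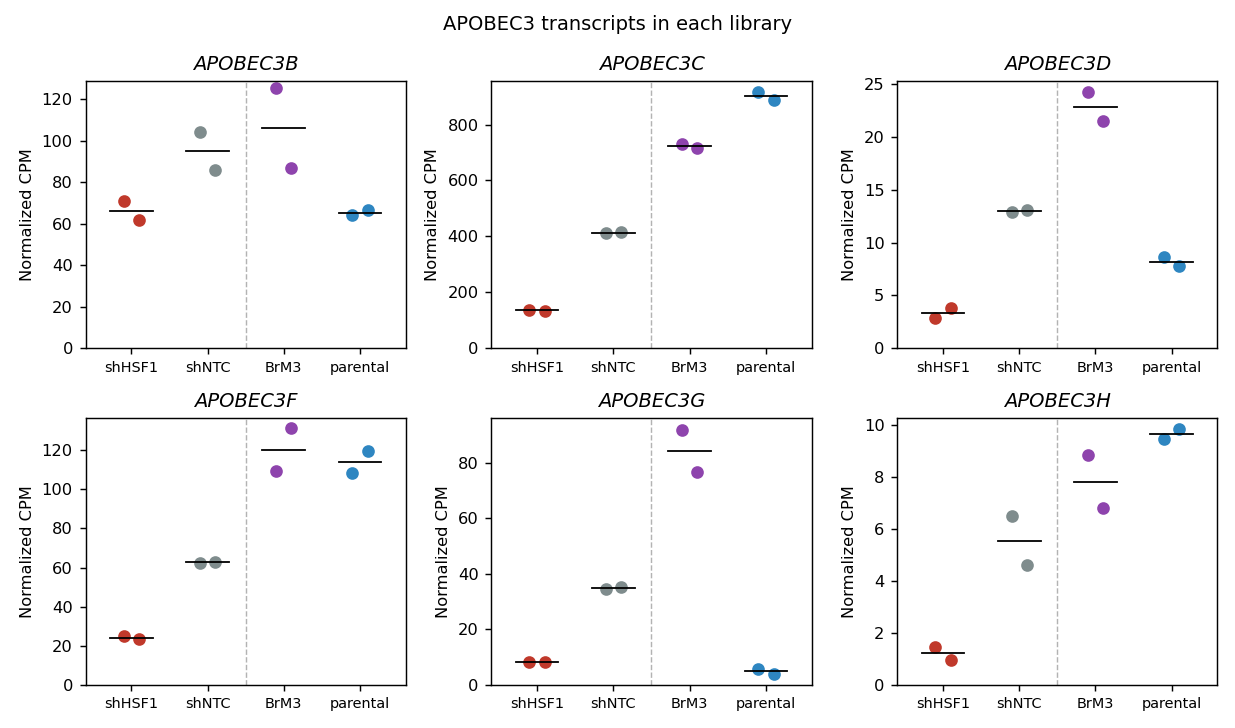
Points show normalized CPM in each of the 8 libraries for the 6 members above the count filter, lines show group means, and the dashed line separates the lanes (BrM3, PC9-BrM3; parental, PC9 parental; n = 2 each). The shHSF1 points lie below the shNTC points in all 6 panels, while only APOBEC3B, APOBEC3D and APOBEC3G have both PC9-BrM3 points above both PC9 parental points.

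APOBEC3G, the double-domain restriction factor best known for hypermutating HIV-1, was at 8.13 and 8.25 CPM with shHSF1, against 34.4 and 35.3 CPM with shNTC. The replicates were close together and the groups were far apart. The log2 fold change was -2.06 ± 0.09 (SE), which is 4.17-fold lower with shHSF1, and it is given as a description because this contrast chose the gene.

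APOBEC3D and APOBEC3F are the other double-domain members with antiviral activity. APOBEC3D was at 2.83 and 3.78 CPM with shHSF1, against 12.9 and 13.1 CPM with shNTC. Both knockdown libraries were well under both controls, and the log2 fold change was -1.95 ± 0.16 (SE; edgeR adjusted p = 8.54e-06). APOBEC3F was at 24.9 and 23.3 CPM with shHSF1, against 62.4 and 62.9 CPM with shNTC. Its groups did not overlap either, and its log2 fold change was -1.35 ± 0.07 (SE; edgeR adjusted p = 7.41e-07).

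APOBEC3C, the most abundant member, was at 135.7 and 134.3 CPM with shHSF1, against 411.4 and 414.3 CPM with shNTC. The replicates nearly coincided in both groups, and its log2 fold change was -1.58 ± 0.06 (SE; edgeR adjusted p = 6.63e-08). APOBEC3H, a single-domain member with common stable and unstable protein haplotypes in humans, was at 1.45 and 0.966 CPM with shHSF1, against 6.48 and 4.59 CPM with shNTC. The 91 counts over both shHSF1 libraries, against 480 over both shNTC libraries, made it the least precisely measured of the members tested, and its log2 fold change was -2.16 ± 0.24 (SE; edgeR adjusted p = 7.17e-05).

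APOBEC3B fell less. It was at 70.8 and 61.8 CPM with shHSF1, against 104.3 and 86.1 CPM with shNTC. The groups did not overlap, but the distance between them was similar to the distance between replicates. Its log2 fold change was -0.49 ± 0.09 (SE; edgeR adjusted p = 0.00197), and when all 8 libraries shared 1 estimate of the spread the call was lost (adjusted p = 0.0674). The interval of 2 SE around its change, -0.68 to -0.31, lay above those of the other 4 members tested, whose upper ends ran to -1.20. The log2 ratio of APOBEC3B to APOBEC3C counts was -0.94 and -1.12 with shHSF1, against -1.98 and -2.27 with shNTC, a difference of 1.09. An exact two-sided permutation test of that ratio gave p = 0.333, the smallest that 2 libraries against 2 allow, so it could not pass.

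APOBEC3B thus took a larger part of a smaller family total. Its share was 37.1 ± 1.98% with shHSF1 and 21.6 ± 2.29% with shNTC (SD, n = 2 each), a difference larger than the spread between replicates. The APOBEC3F share, at 7.91 ± 0.03% with shHSF1 and 8.33 ± 0.30% with shNTC, moved little by comparison.

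APOBEC3A, a single-domain enzyme with strong deaminase activity, was barely detected in any group. It had 5 and 6 counts with shHSF1, against 14 and 5 counts with shNTC, and 12 and 0 counts in PC9-BrM3, against 9 and 9 counts in PC9 parental cells. The groups overlapped in each pair, and the library with no count allows up to 0.0756 CPM (3 counts of its raw total). Over both libraries the level in CPM of the raw library totals, without TMM factors, was 0.157 CPM with shHSF1 (exact 95% Poisson interval 0.0782 to 0.280) and 0.227 CPM with shNTC (0.137 to 0.354). It was 0.131 CPM in PC9-BrM3 (0.0676 to 0.228) and 0.165 CPM in PC9 parental cells (0.0980 to 0.261). A difference was not detectable at this depth, APOBEC3A stayed below the count filter in both comparisons, and the intervals and the limit cover counting error only.

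The comparison of PC9-BrM3 with PC9 parental cells asked what differs in the brain-metastatic derivative. The family did not move together there. Beside APOBEC3G, 1 of 5 members tested passed the threshold, APOBEC3D, which was higher in PC9-BrM3. Of the 17372 genes tested, 7.14% passed in either direction and 3.87% passed as higher. The 5 members had a median log2 fold change of 0.10, against 0.01 over all genes. The family sum was 392.9 and 368.1 CPM per kb in PC9-BrM3, against 404.5 and 398.3 CPM per kb in PC9 parental cells, with APOBEC3C making up most of it.

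APOBEC3G was at 91.8 and 76.5 CPM in PC9-BrM3, against 5.62 and 4.01 CPM in PC9 parental cells. The replicates of each line were far closer to each other than to the other line. The log2 fold change was 4.15 ± 0.24 (SE), which is 17.7-fold higher in PC9-BrM3 and ranked 56 from the top of all genes tested, again as a description. Across the 4 groups APOBEC3G was highest in PC9-BrM3 (84.1 ± 10.8 CPM), then with shNTC (34.9 ± 0.68 CPM), then with shHSF1 (8.19 ± 0.09 CPM) and lowest in PC9 parental cells (4.82 ± 1.14 CPM; SD, n = 2 each). No neighbours in that order overlapped, although the hairpin groups were sequenced in another lane than the untransduced ones.

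APOBEC3D was at 24.3 and 21.5 CPM in PC9-BrM3, against 8.64 and 7.74 CPM in PC9 parental cells. The groups were clearly apart, and the log2 fold change was 1.51 ± 0.18 (SE; edgeR adjusted p = 0.0121). The size held when a PC9 parental library was left out, but the call did not, with adjusted p = 0.0669 without replicate 1 and 0.0880 without replicate 2. By edgeR, APOBEC3D was the only member tested that passed in both comparisons, lower with shHSF1 and higher in PC9-BrM3, while with DESeq2 APOBEC3B did so too.

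APOBEC3B was at 125.6 and 86.6 CPM in PC9-BrM3, against 64.0 and 66.5 CPM in PC9 parental cells. Both PC9-BrM3 libraries were higher, but they lay far from each other. The log2 fold change of 0.72 ± 0.21 (SE) did not pass (edgeR adjusted p = 0.0992), while DESeq2 gave an adjusted p of 0.0341 for it. The log2 ratio of APOBEC3B to APOBEC3C counts was -2.54 and -3.05 in PC9-BrM3, against -3.84 and -3.74 in PC9 parental cells, a difference of 0.99. The exact two-sided permutation test gave p = 0.333, again the smallest that 2 libraries against 2 allow, so it could not pass.

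APOBEC3C was at 731.4 and 716.0 CPM in PC9-BrM3, against 916.6 and 886.4 CPM in PC9 parental cells. Its groups did not overlap, as for 58.8% of all genes, and its log2 fold change was -0.29 ± 0.14 (SE; edgeR adjusted p = 0.270). APOBEC3H was at 8.82 and 6.81 CPM in PC9-BrM3, against 9.45 and 9.83 CPM in PC9 parental cells. Both PC9-BrM3 libraries were lower, and the log2 fold change was -0.28 ± 0.21 (SE; edgeR adjusted p = 0.452). APOBEC3F was at 109.5 and 131.3 CPM in PC9-BrM3, against 108.6 and 119.8 CPM in PC9 parental cells. Here the groups overlapped, and the 2 SE interval of the log2 fold change ran from -0.22 to 0.43 (edgeR adjusted p = 0.729). Leaving out either PC9-BrM3 library brought more of the members past the threshold, as it did for genes in general. Leaving out a PC9 parental library changed the calls too, in the other direction. With a lone library in a group, the spread came from the pair in the other group. The calls between the lines thus changed with the libraries in the fit, and the cause was not tested.

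**Figure D3:**
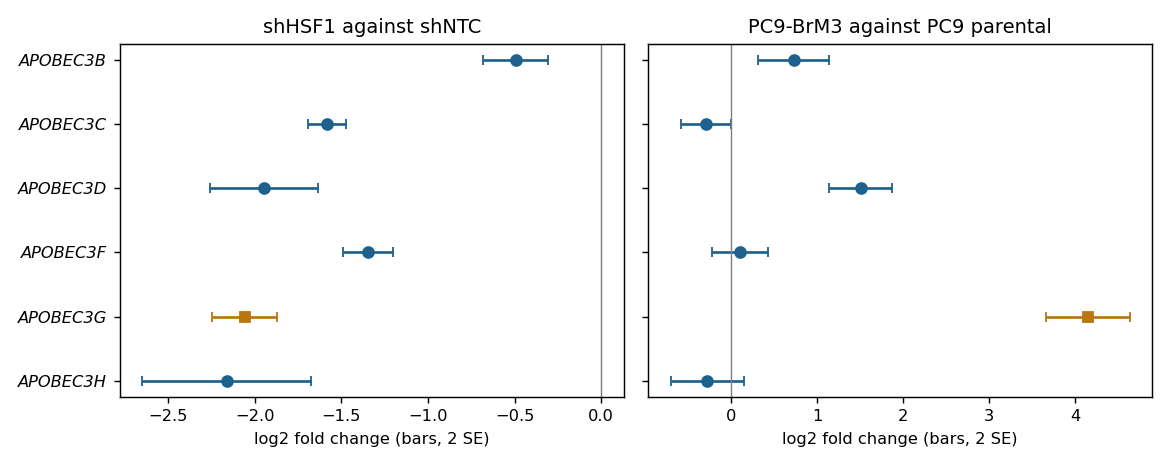
Points show log2 fold changes of the 6 members above the count filter, with bars of 2 SE, for shHSF1 against shNTC (left) and PC9-BrM3 against PC9 parental (right); the square is APOBEC3G, which was chosen on both contrasts. The knockdown changes run from -2.16 to -0.49, while those between the lines spread from -0.29 to 4.15.

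Genes beside the cluster were examined beside the members. Within 300 kb of the family's span there were 36 other annotated genes, of which 21 passed the count filter in each comparison. The sets that passed were not quite identical. In the knockdown, 4 of the 21 were higher and 6 lower, a share near the 45.7% called over all genes, and the log2 fold changes had a median of 0.003. Between the lines, none of the 21 tested there passed by edgeR, while 5 had an unadjusted edgeR p under 0.05 and 3 passed by DESeq2. Inside the span, ENSG00000225720 between APOBEC3G and APOBEC3H was at 1.74 and 2.37 CPM with shHSF1, against 7.17 and 8.32 CPM with shNTC, which gave a log2 fold change of -1.88 ± 0.19 (SE) and an edgeR adjusted p of 3.53e-05. In PC9-BrM3 it was at 7.46 and 4.53 CPM, against 12.7 and 11.7 CPM in PC9 parental cells, and the log2 fold change was -0.996 ± 0.28 (SE; edgeR adjusted p = 0.0966, DESeq2 0.0158), opposite in sign to APOBEC3G beside it. ENSG00000259421, which lies within the span, had under 1 CPM in each library and passed in neither comparison.

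The nearest genes outside the span had smaller changes in the knockdown than the members tested, except APOBEC3B. CBX7, a Polycomb protein gene 16.1 kb beyond APOBEC3H, changed by -0.54 ± 0.10 (SE) on the log2 scale in the knockdown (edgeR adjusted p = 0.00119), a call lost when all 8 libraries were fitted together (adjusted p = 0.0607). CBX6, another Polycomb gene 80.4 kb before APOBEC3A, fell by 0.68 on the log2 scale, and NPTXR, a neuronal pentraxin receptor gene at 108.8 kb, fell by 0.76. PDGFB, which encodes a platelet-derived growth factor chain, lies 119.3 kb beyond APOBEC3H and rose by 0.91 on the log2 scale with shHSF1.

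**Figure D4:**
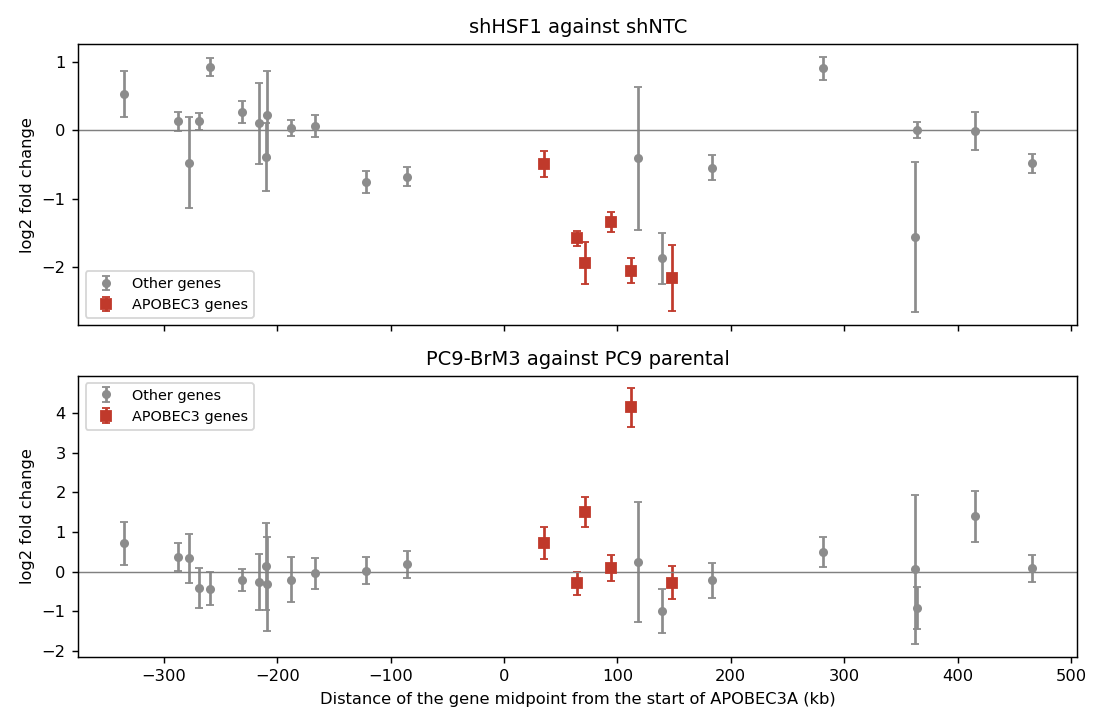
Log2 fold changes with bars of 2 SE are plotted against the distance of each gene's midpoint from the start of APOBEC3A (kb), for shHSF1 against shNTC (top) and PC9-BrM3 against PC9 parental (bottom). Red squares are APOBEC3 genes and grey circles other genes above the count filter; in the top panel APOBEC3C to APOBEC3H lie between -2.16 and -1.35, and in the bottom panel APOBEC3G stands at 4.15.

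The other members of the wider AID/APOBEC family were not measurable. None of the 4 listed genes passed the count filter, and APOBEC1, the apolipoprotein B mRNA editing enzyme, had 4 counts over all 8 libraries. The counts of the gene lists that follow are read against the 45.7% of all genes called in the knockdown, 23.5% as lower, and the 7.14% called between the lines. Among 8 other RNA and nucleoside deaminases tested, 1 was higher and 2 lower with shHSF1, and the list's median log2 fold change was -0.01. The higher one was DCTD, a deoxycytidylate deaminase gene, at 0.24, whose call was lost with all 8 libraries in one fit (adjusted p = 0.369), without shNTC replicate 2 (0.160) and without shHSF1 replicate 1 (0.133). ADAR, which edits adenosine to inosine in double-stranded RNA, was at 90.2 and 90.2 CPM with shHSF1, against 369.8 and 357.5 CPM with shNTC. The log2 fold change was -1.98 ± 0.06 (SE; edgeR adjusted p = 2.66e-08), beside -1.95 for APOBEC3D. ADARB1, the second editing adenosine deaminase, had a log2 fold change of -0.40 with shHSF1, lost in the fit of all 8 libraries (adjusted p = 0.0732), without shNTC replicate 1 (0.0710) and without shHSF1 replicate 2 (0.119). In PC9-BrM3 it was at 1.05 (edgeR adjusted p = 0.0251), lost without PC9 parental replicate 1 (adjusted p = 0.308) or 2 (0.182). By edgeR it was the 1 gene of 7 tested that passed between the lines, where 2 passed by DESeq2.

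Genes that process the uracil left by APOBEC3 enzymes, or bypass the lesion, were called lower in 11 of 18 cases and higher in 4 in the knockdown, beside 23.5% called lower over all genes, and the list's median was -0.34 on the log2 scale. Upper-quartile factors gave 9 lower and 4 higher, and all 8 libraries in one fit gave 8 lower and 2 higher. LIG1 and LIG3, DNA ligases of repair, had log2 fold changes of -0.73 ± 0.06 and -0.80 ± 0.09 (SE), and POLB, the polymerase of base excision repair, one of -0.86 ± 0.10. PRIMPOL, a repriming primase-polymerase, was lower by a similar amount, at -0.74 ± 0.11. Between the lines 1 of 18 passed, MBD4, a uracil and thymine glycosylase gene, at 0.78 ± 0.15 (SE; edgeR adjusted p = 0.0368). That call was lost when either PC9 parental library was left out. Leaving out either PC9-BrM3 library raised the number called in this list, as it did over all genes.

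Regulators linked to APOBEC3 transcription did not share one direction. Of 13 interferon receptor, kinase and transcription factor genes tested in the knockdown, 2 were higher and 4 lower, a share near the 45.7% called over all genes, and between the lines none of 12 passed by edgeR or DESeq2, with 1 at an unadjusted edgeR p under 0.05. IFNGR1 rose by 0.75 on the log2 scale with shHSF1, whereas IFNGR2 fell by 0.65, JAK1 by 0.49 and IFNAR1 by 0.45. Of the 5 NF-kB subunit genes, 3 were higher with shHSF1 and none lower: RELA by 0.44, NFKB2 by 0.76 and NFKB1 by 0.32 on the log2 scale. RELA and NFKB1 lost the call with all 8 libraries in one fit (adjusted p = 0.0977 and 0.159), NFKB1 also without shNTC replicate 1 (0.0921), and none of the 5 passed between the lines by edgeR or DESeq2, with 1 at an unadjusted edgeR p under 0.05. Of 11 genes of the DREAM complex, B-MYB and p53 group, which control cell-cycle genes, 1 was higher and 6 lower with shHSF1, beside 23.5% called lower over all genes, and 1 was higher and 2 lower with all 8 libraries in one fit. The higher one was CDKN1A, a p53 target encoding a cyclin-dependent kinase inhibitor, at a log2 fold change of 1.66 ± 0.14 (SE), and MYBL2, which encodes B-MYB, was at -0.38 ± 0.06, lost with all 8 libraries in one fit (adjusted p = 0.186). Between the lines MYBL2 was the 1 of 11 that passed, at 1.41 ± 0.24 (SE; edgeR adjusted p = 0.0304), lost without PC9 parental replicate 1 (adjusted p = 0.115) or 2 (0.0658).

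Among other antiviral restriction factors, 3 of 18 tested were higher and 8 lower with shHSF1, and 2 of 20 were higher and 1 lower in PC9-BrM3, beside 45.7% and 7.14% of all genes called in those comparisons. With all 8 libraries in one fit, 1 was higher and 5 lower of 20 with shHSF1, and 5 were called in PC9-BrM3. Leaving out either PC9-BrM3 library raised the number called between the lines, as it did over all genes. MOV10, an RNA helicase that binds APOBEC3G, was at 54.2 and 51.8 CPM with shHSF1, against 127.9 and 129.7 CPM with shNTC (log2 fold change -1.25 ± 0.06, SE). BST2, the tethering factor that holds virions at the cell surface, was at 24.5 and 21.1 CPM with shHSF1, against 73.6 and 70.7 CPM with shNTC (log2 fold change -1.63 ± 0.08, SE). It was at 84.7 and 47.9 CPM in PC9-BrM3, against 2.18 and 2.18 CPM in PC9 parental cells (log2 fold change 4.95 ± 0.33, SE, edgeR adjusted p = 0.00344). SLFN5 moved the other way in both comparisons, with log2 fold changes of 1.18 ± 0.11 with shHSF1 and -2.996 ± 0.27 in PC9-BrM3 (SE). OAS1, which makes the activator of RNase L, fell by 0.93 on the log2 scale with shHSF1, and its relative OAS3 rose by 1.35 in PC9-BrM3, a call lost without PC9 parental replicate 1 (edgeR adjusted p = 0.110) or 2 (0.0689).

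The genes whose pattern was nearest to that of APOBEC3G were sought among 13805 genes averaging at least 1 CPM. Log2(CPM + 0.5) was centred within each lane, and likeness was the root mean square difference over the 8 libraries, a description with no test. METTL7A was nearest, with a difference of 0.25 on the log2 scale, followed by BST2 at 0.31, NDRG2 at 0.36, MAMDC2 at 0.41 and GGT6 at 0.42. They lie on chromosomes 12, 19, 14, 9 and 17, in that order. The added 0.5 was larger than the GGT6 levels in PC9 parental cells, 0.0355 and 0.0579 CPM. It was also larger than the METTL7A levels with shHSF1, 0.442 and 0.304 CPM. Adding 0.5 shrinks differences at such low levels, so the likeness of GGT6 and METTL7A depends partly on the added value, which was not varied. BST2, NDRG2 and MAMDC2 were above 0.5 CPM in every library. The nearest member was APOBEC3D, at 0.92 and rank 87, while APOBEC3B stood at 1.30, APOBEC3F at 1.42, APOBEC3H at 1.54 and APOBEC3C at 1.54.

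METTL7A was at 0.442 and 0.304 CPM with shHSF1, against 1.94 and 2.54 CPM with shNTC, and at 44.8 and 30.7 CPM in PC9-BrM3, against 2.15 and 2.43 CPM in PC9 parental cells. Within each lane its order of groups was that of APOBEC3G. Its shNTC level was near the PC9 parental level, whereas the shNTC level of APOBEC3G was several times its PC9 parental level, a difference between lanes that the centring removes.

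**Figure D5:**
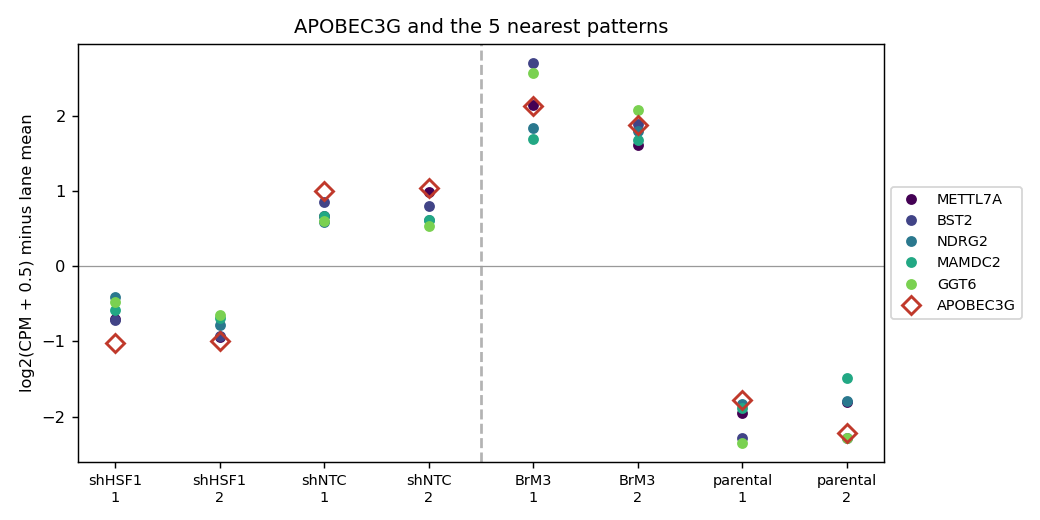
Points show log2(CPM + 0.5) minus the mean of its lane for APOBEC3G (open diamonds) and the 5 nearest genes (filled circles) in each of the 8 libraries, with the lanes separated by the dashed line (BrM3, PC9-BrM3; parental, PC9 parental). All 6 genes lie below 0 with shHSF1 and above 0 with shNTC, and above 0 in PC9-BrM3 and below 0 in PC9 parental cells. The 5 genes were chosen for likeness on these same values, so their agreement with APOBEC3G is no separate result.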

How the data were processed

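Total RNA of 8 libraries was measured by RNA-seq. The deposited values are raw counts per Ensembl gene made by the authors with featureCounts 1.6.1 (reverse-stranded, exons, GRCh37), per the file headers, from the first read of trimmed libraries. The header command sets no option for multi-mapping or overlapping reads. Trim Galore, HISAT2 and DESeq2 are named in the submitters' processing notes, with no versions. Symbols were matched for 62.3% of the 63677 identifiers.

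Counts were tested with edgeR 4.0.16 in R 4.3.3 (quasi-likelihood F test, TMM factors, filterByExpr with a minimum count of 10 and total of 15, Benjamini-Hochberg adjusted p under 0.05 over all genes), within each lane, and the code was tested on simulated data. SE is the log2 fold change divided by the square root of F. Levels are CPM on 1 TMM scale over the 8 libraries, except that the APOBEC3A intervals and the limit for 0 counts use raw library totals. Alternatives were DESeq2 1.42.0, other factors and filters, 1 fit of all libraries, a replicate block and leaving out each library. The members and lists were chosen with earlier results of these data known. Named genes were the members, HSF1, up to 4 called genes per list and comparison with the smallest p, the 6 nearest neighbours and the 5 nearest patterns; APOBEC1 was named after its values were seen.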

Additional observations from a re-analysis of the deposited data

How the results depend on the processing

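Each contrast rests on 2 libraries a group and 1 HSF1 hairpin. In the knockdown, all 5 members beside APOBEC3G passed under every alternative run, leaving out 1 library included, except that 4 passed with all 8 libraries in one fit, where 3873 genes passed in place of 7701. Between the lines, where 1240 genes and 1 member passed, DESeq2 gave 2203 genes and 2 members, no count filter 3159 and 2, and all 8 libraries in one fit 3813 and 2. Leaving out 1 library there, with the lone library assumed to vary like the pair, gave 402 to 9228 genes and 0 to 5 members. It was 402 and 479 genes and 0 members without PC9 parental replicate 1 or 2, 9228 genes and 5 members without PC9-BrM3 replicate 1, and 5594 genes and 3 members without PC9-BrM3 replicate 2. Over those fits the log2 fold change ran from -0.0627 to 0.24 for APOBEC3F, -0.53 to 0.0218 for CBX7, -0.15 to 0.17 for NPTXR and -1.84 to 0.94 for ENSG00000259421, which ran from -1.10 to 0.0275 in the knockdown. The cause was not tested. Same-numbered replicates did not deviate together (correlations of 0.016 in the knockdown and -0.019 between the lines over 2 pairs), and with the replicate number as a block 8015 and 1328 genes and 5 and 1 members passed, with ENSG00000259421 at -0.0371 between the lines. RLE and upper-quartile factors left all 5 of the nearest patterns to APOBEC3G in place, but the 0.5 added to CPM was not varied. The transcript lengths, the 2 sets of factors for the nearest patterns and the refits of genes outside the family were chosen after seeing the data.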
